A study of Mus musculus with 2 samples.

Results

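The 10 genes described here regulate pre-mRNA splicing: the kinases Clk1, Clk2, Clk3 and Clk4, the splicing activators Tra2a and Tra2b, the RNA-binding proteins Rbm5 and Rbm39, the small U2AF subunit U2af1 and the U1 snRNP partner Luc7l2. They were chosen by symbol from a table of 141864 annotated transcripts in 55450 genes, and every one of the 10 was found. The rule used no measured value, but earlier results of these data were known when the choice was made. Together they have 132 annotated transcripts, of which 39 are coding, 28 are annotated as targets of nonsense-mediated decay, 53 as retained-intron transcripts and 12 as other processed transcripts. The question addressed was how the RNA of each gene is divided among those classes in the nucleus.

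The libraries hold total RNA of the nucleoplasm, the soluble part of the nucleus, after depletion of ribosomal RNA. The cells were primary macrophages of strain C57BL/6J, grown in culture from bone marrow precursors. For 90 min they had received 100 ng/ml of lipid A, the membrane anchor of lipopolysaccharide, which TLR4 senses. There is 1 group with 2 biological replicates and no unstimulated group, so no response to lipid A can be given and no test between conditions exists. As the replicates share a donor entry, part of their spread may be technical. Sex and age were not collected. Replicate 1 was made from 1 µg of RNA and replicate 2 from 500 ng.

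CLK kinases phosphorylate SR proteins, the serine- and arginine-rich factors that mark exons for the spliceosome, and so change which exons are used. TRA2 proteins bind purine-rich exon sequences and promote exon inclusion, RBM5 and RBM39 influence splice site choice, U2AF1 reads the AG at the end of an intron, and LUC7L2 works with the U1 snRNP at the start of one. Many splicing factors limit their own amount by unproductive splicing: a poison exon or a skipped exon brings in an early stop codon and the RNA is degraded in the cytoplasm by nonsense-mediated decay, or an intron is left in place and the RNA stays in the nucleus. Clk1 is a well-known case of the latter, with introns held around an alternative exon.

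The values rest, unless stated, on the direct quantification, with 30881427 estimated counts for replicate 1 and 27674626 for replicate 2. TPM is a level per transcript length, scaled to the same total in each library. Transcripts with an effective length under 200 bases took 77.9% and 65.8% of that total. Mitochondrial genes took 4.45% and 10.3% of the counts. A protein-coding gene was called expressed from 1 TPM upward in each library. Over the 9732 such genes, the median log2 ratio of replicate 2 over replicate 1 was 0.34, so raw TPM values lie higher in replicate 2. All 8 macrophage markers were at 13.2 TPM or more, with a sum of 1290 and 1639 TPM. The 4 T cell markers summed to 3.20 and 13.5 TPM, nearly all from Cd3d at 3.01 and 13.1 TPM, with Trac at 0. The 4 B cell markers summed to 1.25 and 1.22 TPM, the 4 neutrophil markers to 1.92 and 1.54 TPM with Ly6g and Elane at 0, and the 3 erythroid markers to 0 and 0.162 TPM.

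All 10 genes were above the median level of the expressed protein-coding genes, which was 5.90 TPM in replicate 1 and 7.64 TPM in replicate 2. Rbm39 was the most abundant, at 397 and 484 TPM, or 440.4 ± 61.2 TPM (SD, n = 2). Luc7l2 followed at 138 and 196 TPM, or 167 ± 41.0 TPM (SD, n = 2). The gaps between Rbm39, Luc7l2 and the rest were larger than the SD of either neighbour, and their libraries did not overlap. Tra2a had 51.8 and 73.5 TPM, Clk1 43.1 and 74.8 TPM, Rbm5 46.6 and 60.5 TPM, and Tra2b 47.7 and 57.1 TPM. These 4 genes overlapped between libraries, and none differed from its neighbour in the order by more than their SD. Clk4, at 30.7 and 38.6 TPM, and Clk3, at 33.5 and 35.1 TPM, could not be ordered either. U2af1 had 25.1 and 30.1 TPM. Clk2 was the lowest, at 11.3 and 16.8 TPM, or 14.0 ± 3.85 TPM (SD, n = 2), which is percentile 70.7 of the expressed protein-coding genes against percentile 99.6 for Rbm39. Alignment-based values kept Rbm39, Luc7l2, Tra2a and Clk1 as the highest and U2af1 and Clk2 as the lowest, and exchanged the places of Rbm5 with Tra2b and of Clk4 with Clk3.

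**Figure D1:**
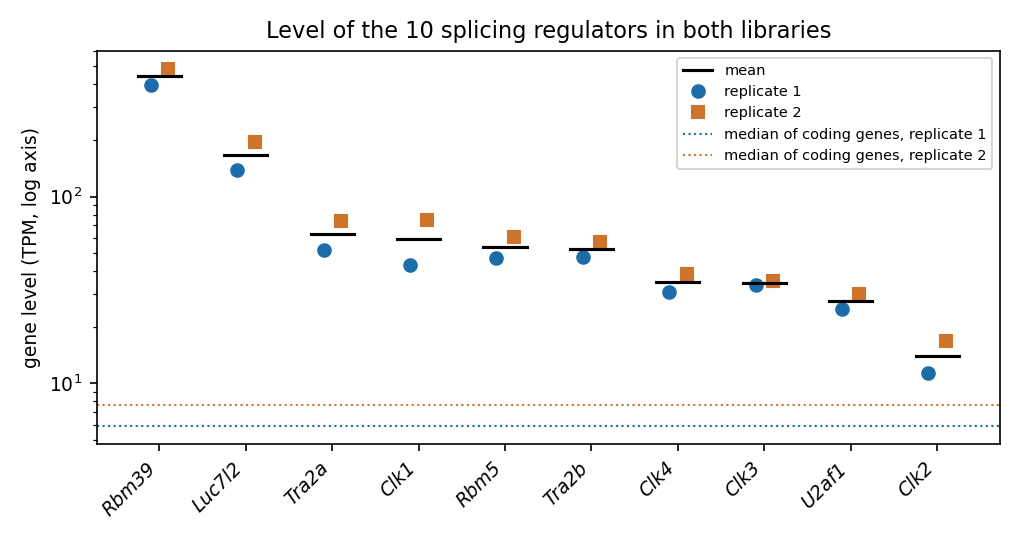
Gene level in TPM on a log axis for the 10 splicing regulators, with replicate 1 as circles, replicate 2 as squares and the mean as a bar; dotted lines mark the median of expressed protein-coding genes in each library (5.90 and 7.64 TPM). Rbm39 (397 and 484 TPM) and Luc7l2 (138 and 196 TPM) stand above the other 8 genes, and all 10 lie above both medians.

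All 10 raw values were higher in replicate 2. After subtraction of the median log2 ratio of 0.34, the ratios ran from -0.27 for Clk3 to 0.45 for Clk1, on the log2(TPM + 0.1) scale. None of the 10 members was past 1.5-fold in either direction, against 18.8% of 9732 expressed protein-coding genes. With 1 library on each side of this ratio there is no test.

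Most TPM of these genes was assigned to transcripts outside the coding class. Over the 10 genes pooled, coding transcripts held 14.96% and 15.1% of the TPM in replicates 1 and 2. Retained-intron transcripts held 47.0% and 48.0%, nonsense-mediated decay transcripts 26.5% and 22.4%, and other processed transcripts 11.6% and 14.4%. Rbm39 weighs most in these pooled values, with 397 of 825 TPM and 484 of 1067 TPM. The median nonsense-mediated decay share over the members was lower than the pooled one, at 9.11% and 12.9%. In the alignment-based table the pooled coding share was 24.5% and 25.1%, over 1.5 times as large, and the nonsense-mediated decay share 16.7% and 16.3%. Of the 10 genes, 9 had 50% or more of their TPM in the nonsense-mediated decay and retained-intron classes in both libraries, against 36.0% of 6715 expressed protein-coding genes that have a transcript of either class. Tra2b was the exception, at 44.1% and 51.4%. Clk3 was just inside the cutoff, at 50.4% and 65.3%. Over transcripts with an effective length of 200 bases or more, the mean share of Clk3 was 42.8%, which leaves 8 of 10 members at the cutoff on the mean. The share of background genes was not computed at that setting. The median of this summed share over the members was 73.5% and 70.5%, beside 42.7% and 43.1% over all 6715 genes.

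The number of annotated transcripts bears on that comparison. The median number of annotated transcripts in these 2 classes was 6 for the members and 2 for all genes in the background. Among genes with at least 5 such transcripts, 8 of 9 members were at the cutoff, against 66.6% of 1483 genes. In that background the median summed share was 63.5% and 64.6%. The part of the annotation in the members' high shares was not tested further.

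**Figure D2:**
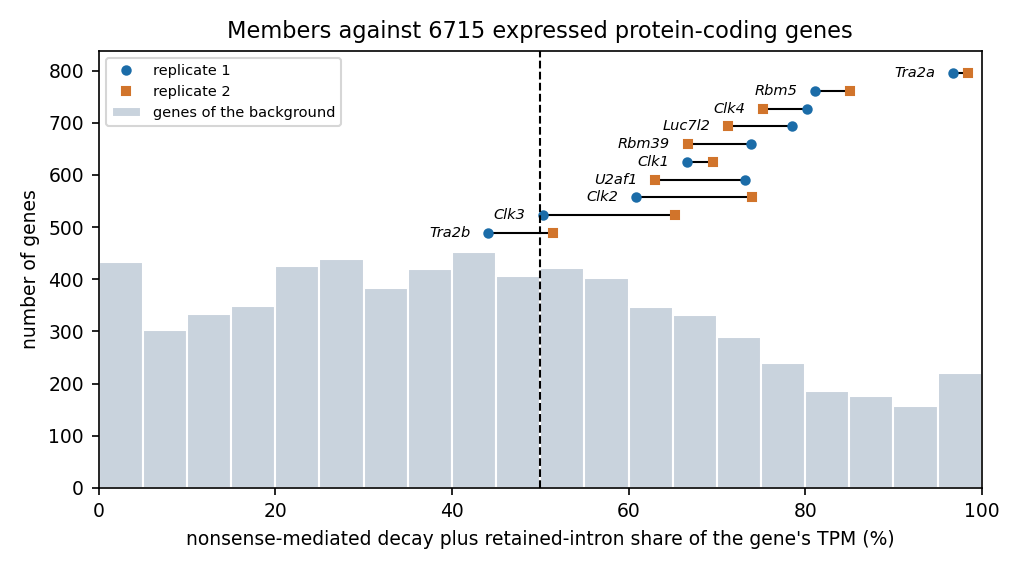
Histogram of the summed nonsense-mediated decay and retained-intron share of TPM (percent, mean of both libraries) over 6715 expressed protein-coding genes, with the 10 members above it as circles (replicate 1) and squares (replicate 2). The dashed line is the 50% cutoff, and 9 members lie to its right in both libraries while Tra2b spans it (44.1% and 51.4%).

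Retained-intron transcripts were the larger of these 2 classes in both libraries for 8 of the 10 genes, the exceptions being Tra2a and Rbm39, against 80.8% of 2499 genes that have both classes. In the alignment-based table the count was 10, against 81.1% of 2270 genes. The members' counts are thus close to the background. Of the 10, 6 had a retained-intron share of 50% or more in both libraries (Clk1, Clk2, Clk4, Rbm5, U2af1 and Luc7l2), against 31.0% of 6182 genes with such a transcript. In the alignment-based table the count was again 6, against 21.5% of 5577 genes, but not of the same genes: Clk1, at 54.0% and 47.0%, and Clk4, at 53.5% and 47.0%, dropped out, and Clk3, at 51.2% and 60.01%, and Tra2a, at 55.2% and 53.1%, came in. Reads from introns of RNA that is not yet spliced fall on the same bases as retained-intron transcripts. In nuclear RNA both sources cannot be told apart from these tables, and their parts were not tested.

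**Figure D3:**
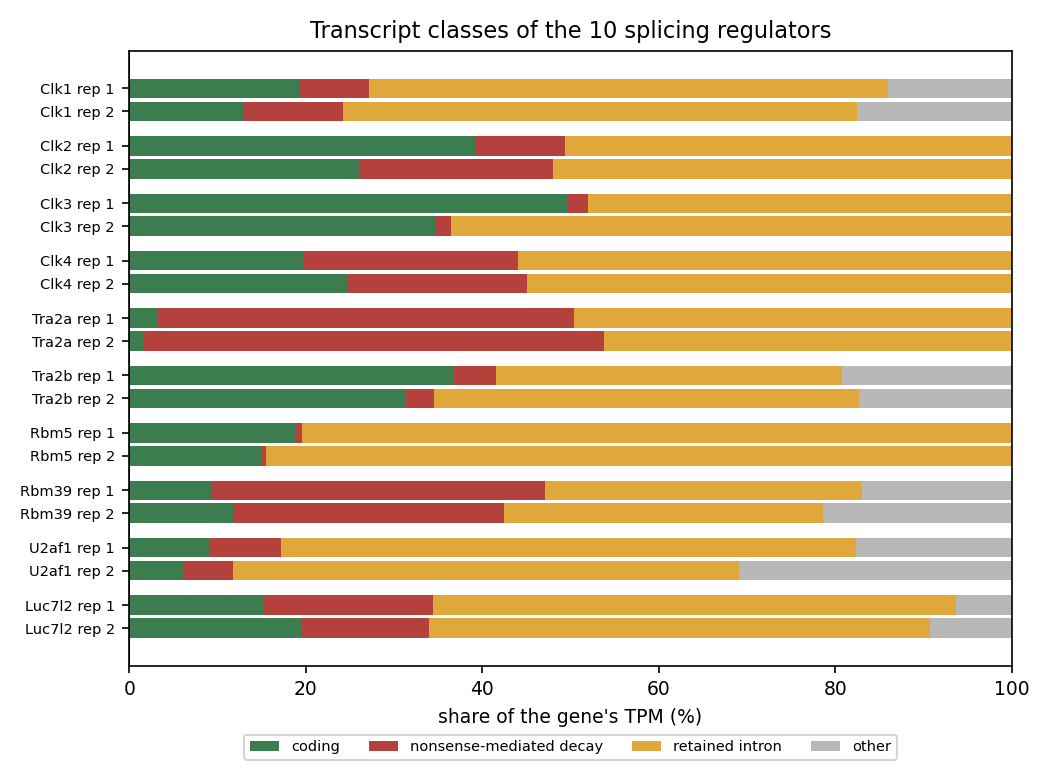
Share of each gene's TPM (percent, from 0 to 100) in coding, nonsense-mediated decay, retained-intron and other transcripts, with 1 bar per library and gene. Retained-intron transcripts are the widest band in both libraries for 7 genes, Tra2a is nearly without a coding band (3.30% and 1.56%), and Rbm5 has the widest retained-intron band (80.4% and 84.5%).

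Clk1, a kinase of SR proteins and of itself, had 19.4% of its TPM in its coding transcript in replicate 1 and 12.9% in replicate 2, 7.83% and 11.3% in nonsense-mediated decay transcripts, and 58.8% and 58.3% in retained-intron transcripts. Its summed share was 68.1 ± 2.09% (SD, n = 2). Clk2 had 39.2% and 26.0% coding, 10.2% and 22.0% nonsense-mediated decay and 50.7% and 51.9% retained intron. The coding share of Clk2 was thus lower in replicate 2 and its nonsense-mediated decay share higher, while its retained-intron share hardly moved. Clk3 had 49.6% and 34.7% coding, the largest mean of the 10 genes, with 2.37% and 1.76% nonsense-mediated decay and 48.0% and 63.5% retained intron. In estimated counts the coding share of Clk3 was 35.0%, below Tra2b at 43.7%, and in replicate 2 of the alignment-based table it was 37.6%, below Clk4 at 44.8%. Clk4 had 19.7% and 24.7% coding, 24.3% and 20.3% nonsense-mediated decay and 55.9% and 55.0% retained intron. In the nonsense-mediated decay share Clk3 was the lowest of the 4 kinases in both libraries. Clk4 was the highest on the mean, at 22.3%, and overlapped with Clk2. That rank held for TPM of the direct table: the mean share of Clk4 was 9.58% in the alignment-based table and 11.0% in estimated counts, below Clk2 at 21.8% and 18.5%. The share of Clk1 was 15.6% in the alignment-based table. The coding share also moved with the table, on the mean from 22.2% to 40.1% in Clk4 and from 32.6% to 17.9% in Clk2. Clk3 shares 14.9% of its 30-base words with other genes, led by Edc3, which overlaps it on the opposite strand and had 1.54 and 2.00 TPM. Gm25082 overlaps Clk4 on the same strand and had 18.3 and 14.2 TPM. Whether reads of Gm25082 and Clk4 are mixed was not tested.

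All 4 kinase genes have a reference transcript of 13 exons, and exons 5 to 12 have the same lengths in all 4. Exon 4 differs in length, with 91 bases in Clk1, 85 in Clk2, 97 in Clk3 and 91 in Clk4, and leaves a remainder of 1 base on division by 3 in each, so skipping it shifts the reading frame. In each kinase gene at least 1 annotated nonsense-mediated decay transcript skips exon 4, and at least 1 annotated retained-intron transcript keeps the whole of introns 3 and 4 around it. Rbm5 has the same arrangement at its exon 6 of 74 bases, which leaves a remainder of 2. These 5 exons are shown with 30 bases of the intron before and 15 of the intron after, on the mm10 build and on the strand of the gene. They are printed because both unproductive forms differ from the spliced form at these exons, by skipping the exon or by keeping the introns around it. Capitals mark the exon.
Clk1 exon 4, chr1:58420106-58420241, minus strand: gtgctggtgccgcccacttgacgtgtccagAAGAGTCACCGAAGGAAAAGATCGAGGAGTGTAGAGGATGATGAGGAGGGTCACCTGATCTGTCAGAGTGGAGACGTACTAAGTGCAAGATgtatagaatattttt
Clk2 exon 4, chr3:89169588-89169717, plus strand: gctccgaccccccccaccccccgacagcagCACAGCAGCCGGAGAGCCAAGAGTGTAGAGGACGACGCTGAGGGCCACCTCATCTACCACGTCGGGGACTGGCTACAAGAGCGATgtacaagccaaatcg
Clk3 exon 4, chr9:57758612-57758753, minus strand: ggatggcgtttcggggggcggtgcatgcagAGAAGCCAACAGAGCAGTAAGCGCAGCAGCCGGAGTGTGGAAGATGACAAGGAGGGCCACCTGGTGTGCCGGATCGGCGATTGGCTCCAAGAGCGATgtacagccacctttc
Clk4 exon 4, chr11:51273048-51273183, plus strand: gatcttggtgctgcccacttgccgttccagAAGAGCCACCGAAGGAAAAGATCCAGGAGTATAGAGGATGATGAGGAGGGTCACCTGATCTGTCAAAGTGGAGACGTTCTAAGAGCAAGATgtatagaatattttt
Rbm5 exon 6, chr9:107759761-107759879, minus strand: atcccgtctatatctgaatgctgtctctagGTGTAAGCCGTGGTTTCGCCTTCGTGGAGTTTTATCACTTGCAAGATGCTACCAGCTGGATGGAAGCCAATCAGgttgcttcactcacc

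Each of the 5 exons is preceded by AG and followed by GT, the usual ends of an intron. Exon 4 of Clk1 and Clk4 was identical at 93.4% of aligned bases. The other 5 pairs of kinase exons were identical at 59.3% to 65.3%. In the annotation, an exon that is skipped by a nonsense-mediated decay transcript and bracketed by 2 whole introns kept in a retained-intron transcript occurs in 5 of the 10 members, against 3.24% of 2499 genes with transcripts of both classes. The 4 kinases are paralogs, so they are not independent examples. This count describes the annotation and not the libraries.

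In the libraries, the Clk1 transcripts that keep introns 3 and 4 (Clk1-204 and Clk1-212) summed to 9.40 TPM in replicate 1 and 13.6 TPM in replicate 2, and those that skip exon 4 to 3.38 and 8.45 TPM. The Clk3 transcript that keeps both introns had 5.11 and 6.72 TPM, against 0.796 and 0.619 TPM for the skipping transcript. In Rbm5 the corresponding values were 6.31 and 9.28 TPM with the introns kept, and 0.331 and 0.278 TPM with the exon skipped. The intron-keeping form was thus the higher one in both libraries for Clk1, Clk3 and Rbm5. In Clk2 the form with the introns kept had 1.33 and 2.23 TPM and the skipping form 1.15 and 3.70 TPM. In Clk4 the form with the introns kept had 3.48 and 7.51 TPM and the skipping form 6.32 and 3.74 TPM. That skipping form counts nonsense-mediated decay transcripts only. The coding transcript Clk4-203 also skips exon 4, along with exon 2, and had 1.37 and 2.10 TPM. The order of the forms changed between libraries in Clk2 and Clk4. In the alignment-based table the intron-keeping form was the higher one in both libraries for 4 genes, Clk4 included, and Clk2 again changed order. For Clk4 the intron-keeping form had 5.15 and 8.53 TPM there, and the skipping form 3.29 and 3.20 TPM. Clk4-203, outside that form, had 1.97 and 3.01 TPM. In replicate 1 the order in Clk4 there thus depended on whether Clk4-203 was counted as skipping. In replicate 2 the intron-keeping form was the higher one either way.

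**Figure D4:**
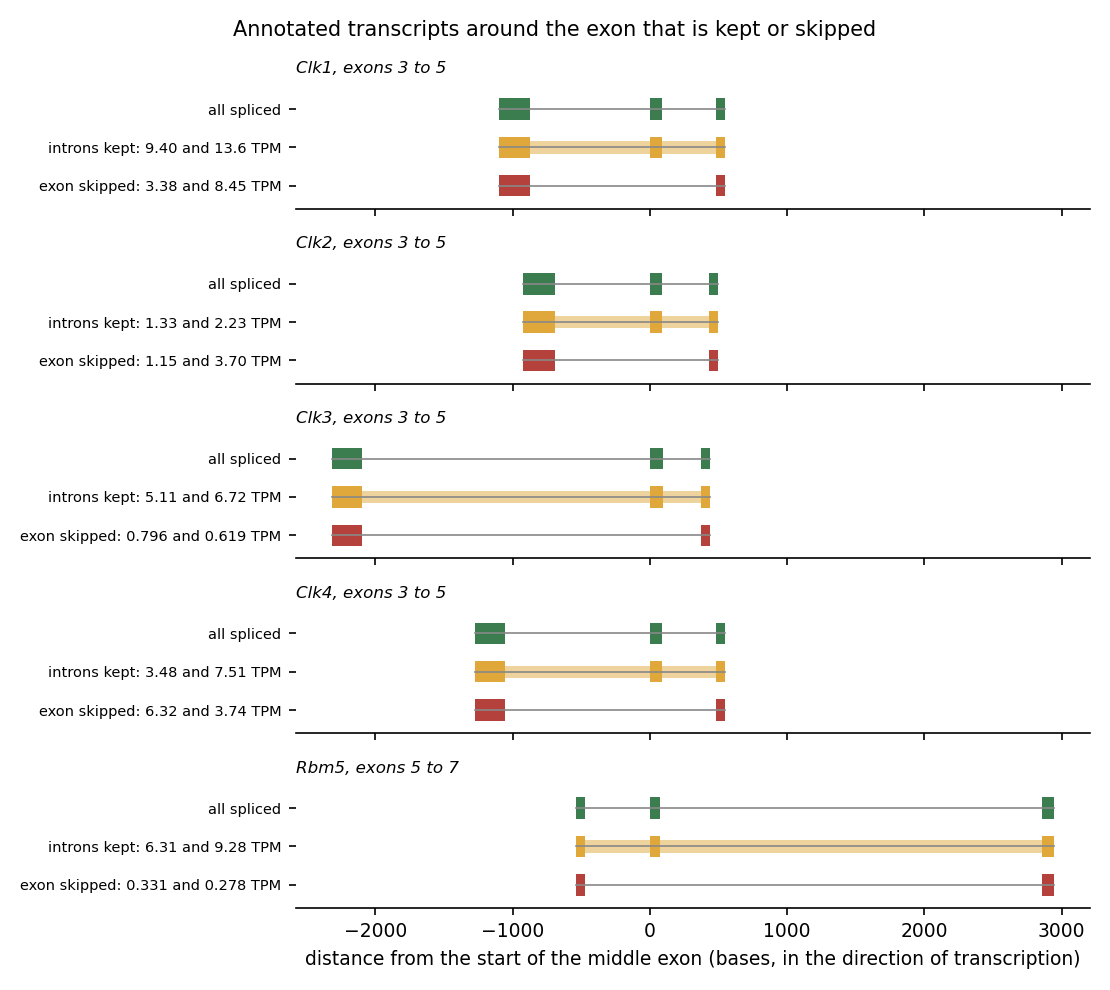
Reference exons around exon 4 of the 4 CLK genes and exon 6 of Rbm5, drawn to scale against distance in bases from the start of the middle exon; for each gene the rows are the spliced form, the form with both introns kept and the form with the exon skipped, with the summed TPM of the annotated transcripts in replicates 1 and 2. Clk1, Clk3 and Rbm5 have more TPM in the form with the introns kept in both libraries, while Clk2 and Clk4 change order. The skipped form counts nonsense-mediated decay transcripts only.

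A leading transcript is, from here on, the one with the highest mean TPM of its class in the direct table. Of the 30 leading transcripts of the 10 genes, 23 were the highest of their class in both libraries of that table and 15 in both libraries of both tables. Clk1-209 and Clk1-204, with retained introns, could not be ordered, at 7.91 and 13.7 TPM against 8.67 and 12.3 TPM. Clk1-209 has an end inside intron 2, and Clk1-204 keeps introns 3, 4 and 6. In the alignment-based table Clk1-204 was the higher one, at 12.9 and 19.1 TPM against 4.63 and 3.08 TPM. Clk3-202 had 6.61 and 11.96 TPM against 5.11 and 6.72 TPM for Clk3-203, which keeps introns 3 and 4, and the alignment-based table again had the opposite order, at 2.20 and 8.70 TPM against 7.90 and 10.8 TPM. Clk4-206 had 7.52 and 7.48 TPM and the intron-keeping Clk4-213 had 3.48 and 7.51 TPM, against 3.54 and 5.44 TPM and 5.15 and 8.53 TPM in the alignment-based table. In Clk2 the leading retained-intron transcript was Clk2-211 at 1.75 and 3.06 TPM. Coding transcripts were led by Clk1-201 at 8.34 and 9.62 TPM, Clk2-210 at 2.24 and 3.21 TPM, Clk3-204 at 7.91 and 3.45 TPM and Clk4-202 at 2.84 and 5.33 TPM. Clk3-204 was below Clk3-201, at 4.04 TPM, in replicate 2. Clk2-210 is a fragment of 593 bases, and the alignment-based table lists it at 0 in both libraries. The leading nonsense-mediated decay transcripts, Clk1-210, Clk2-204, Clk3-209 and Clk4-212, all skip exon 4. Clk4-212 also holds extra exons of 67, 78 and 59 bases in intron 2. Clk4-214, a decay target not listed as skipping exon 4, holds them too. Clk1-210 had 3.38 and 8.45 TPM in the direct table and 6.77 and 19.8 TPM in the alignment-based one, while Clk4-212 had 5.91 and 3.29 TPM in the direct table, below Clk4-214 at 4.09 TPM in replicate 2, and 1.07 and 1.59 TPM in the other.

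Tra2a and Tra2b encode closely related activators of exon inclusion, and their RNA was divided in different ways. Tra2a had the smallest coding share of the 10 genes, at 3.30% and 1.56% of its TPM. Nonsense-mediated decay transcripts held 47.0% and 52.2% of Tra2a, the largest such share among the members, and retained-intron transcripts 49.7% and 46.2%. Tra2b had 36.7% and 31.3% coding, 4.84% and 3.25% nonsense-mediated decay and 39.2% and 48.1% retained intron. On the scale of levels in the direct table, coding transcripts had 1.71 and 1.15 TPM in Tra2a, all of it in Tra2a-204. The coding transcripts Tra2b-201 and Tra2b-204 had 11.0 and 8.73 TPM and 6.49 and 9.13 TPM there. In the alignment-based table Tra2a-204 had 6.17 and 5.85 TPM and Tra2a-201 had 7.95 and 0 TPM. Tra2b-201 had 10.4 and 8.87 TPM and Tra2b-204 had 11.9 and 16.1 TPM in that table. Nonsense-mediated decay transcripts held 26.9% and 41.6% of Tra2a in the alignment-based table, and 35.4% on the mean in estimated counts. The groups of values for both genes did not overlap in the coding or the nonsense-mediated decay share.

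In each gene the leading nonsense-mediated decay transcript holds a cassette exon, an extra exon within intron 1. Tra2a-202 carries a cassette exon of 306 bases (chr6:49252803-49253108) whose reading frame meets a TAG stop, with its first base at position 142 of the exon. Tra2a-202 had 24.4 and 38.4 TPM and is the gene's only annotated nonsense-mediated decay transcript. Tra2b-206 carries a cassette exon of 276 bases (chr16:22258986-22259261) with a TGA stop at position 79, and had 1.64 and 1.86 TPM. The bases of the Tra2b exon also lie whole within Tra2b-203, a retained-intron transcript at 13.7 and 20.6 TPM, and Tra2b-202, a processed transcript at 9.20 and 9.90 TPM. All 5 Tra2b transcripts that hold the exon summed to 25.2 and 32.3 TPM, against 24.4 and 38.4 TPM for the 1 such transcript of Tra2a. The paralogs thus overlapped in the TPM of transcripts holding these bases, and differed in the part annotated as nonsense-mediated decay targets. The first 180 bases of each exon are shown in the direction of transcription on mm10, with the in-frame stop in capitals and positions counted from 1 at the exon's start, because the annotated stop of these decay targets lies there.
Tra2a cassette exon, chr6:49252929-49253108, minus strand: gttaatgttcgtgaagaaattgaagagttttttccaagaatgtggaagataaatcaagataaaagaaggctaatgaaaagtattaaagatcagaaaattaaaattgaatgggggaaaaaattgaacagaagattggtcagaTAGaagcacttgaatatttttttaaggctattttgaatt
Tra2b cassette exon, chr16:22259082-22259261, minus strand: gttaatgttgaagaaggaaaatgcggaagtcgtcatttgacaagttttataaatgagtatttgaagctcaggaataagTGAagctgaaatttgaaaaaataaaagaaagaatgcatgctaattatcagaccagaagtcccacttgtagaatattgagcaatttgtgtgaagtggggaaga

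Both exons have a length divisible by 3 and are identical at 59.6% of aligned bases. TRA2 proteins are known to bind AGAA, so the letters AGAA were counted, overlapping matches included. Tra2a had 13 matches over its whole cassette exon, or 4.25 per 100 bases, and Tra2b had 12, or 4.35 per 100 bases. The median over 19980 internal exons of 200 to 400 bases in coding transcripts was 0.649 per 100 bases, and 78.7% of those exons hold at least 1 match. Only 0.275% of them reached the density of the Tra2a exon and 0.250% that of the Tra2b exon. On the opposite strand, read as TTCT, both cassette exons had 0 matches, while 63.4% of the internal exons hold at least 1. A match is a description of letters and not of binding.

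The leading retained-intron transcripts of both TRA2 genes also hold part of intron 1, and each begins or ends inside it. Tra2a-203, a single exon of 3788 bases, had 20.9 and 29.5 TPM, and Tra2b-203 had 13.7 and 20.6 TPM. A gene on the opposite strand, Gm43980, overlaps Tra2a and had 21.7 and 29.9 TPM. Whether counting used the strand is not given in the sources used here, so reads of overlapping opposite genes may be mixed. For Tra2b, 10.5% of the 30-base words in its transcripts also occur in other genes, led by Gm10254, which was at 0 and 0.0643 TPM.

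Rbm5, an RNA-binding protein known for its effect on apoptosis-related exons, had the largest retained-intron share among the members in the direct table, and a mean below that of U2af1 in the alignment-based one. That share was 80.4% in replicate 1 and 84.5% in replicate 2, or 82.4 ± 2.85% (SD, n = 2). Coding transcripts held 18.9% and 14.9% and nonsense-mediated decay transcripts 0.709% and 0.609%, the smallest share of that class among the 10 genes. Its 13 retained-intron transcripts were led by Rbm5-219, at 6.31 and 9.28 TPM, the form that keeps introns 5 and 6. Its leading coding transcript, Rbm5-205, had 3.29 and 4.44 TPM. In estimated counts the mean coding share of Rbm5 was 9.77%, against 16.9%. Gm37850, on the opposite strand, overlaps Rbm5 and had 7.59 and 11.7 TPM.

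Rbm39, a coactivator and splicing factor related to U2AF2, had nonsense-mediated decay and retained-intron shares of similar size. Nonsense-mediated decay transcripts held 37.8% and 30.6% of its TPM, retained-intron transcripts 36.0% and 36.1%, and coding transcripts 9.23% and 11.9%. That holds for TPM of the direct table. In the alignment-based table retained-intron transcripts held 46.6% and 39.1%, more than the 20.8% and 17.8% of nonsense-mediated decay. The mean coding share was 29.1% there, against 10.6%, and also 29.1% in estimated counts. All 8 of its annotated nonsense-mediated decay transcripts have their stop inside a cassette exon, in intron 2, 3 or 13. A cassette of 73 bases in intron 2 (chr2:156178880-156178952) occurs in 4 of them, which summed to 41.6 and 31.8 TPM. The retained-intron transcript Rbm39-208, at 35.6 and 33.0 TPM, also holds that exon, and the retained-intron transcript Rbm39-211 covers it. A cassette of 72 bases in intron 3 occurs in Rbm39-223, at 21.8 and 30.4 TPM, and in Rbm39-219, at 15.2 and 13.6 TPM. In the alignment-based table Rbm39-219 had 1.14 and 2.06 TPM. The retained-intron transcript Rbm39-210, at 18.8 and 12.9 TPM in the direct table, also holds this exon of 72 bases. In Rbm39-223 its reading frame meets a TGA stop at position 41, in capitals here, and this exon is shown whole as the one in a nearly full-length transcript of 18 exons.
Rbm39 cassette exon, chr2:156174097-156174168, minus strand: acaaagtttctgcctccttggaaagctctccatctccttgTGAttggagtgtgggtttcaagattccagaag

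The highest nonsense-mediated decay transcript of Rbm39 depended on the quantification. Rbm39-224, of 585 bases, had 66.4 and 64.3 TPM in the direct table and 0.720 and 0 TPM in the alignment-based one, where the deposited interval bounds were 0.0867 to 2.11 TPM in replicate 1. Its coding transcript Rbm39-217 had 31.6 and 52.6 TPM in the direct table and 60.2 and 116 TPM in the alignment-based one. The leading retained-intron transcript Rbm39-205 had 54.6 and 87.4 TPM in the direct table and 48.8 and 64.8 TPM in the alignment-based one.

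U2af1, which recognises the AG at the 3' end of an intron, had 9.17% and 6.10% of its TPM in coding transcripts and 65.1% and 57.4% in retained-intron transcripts. Nonsense-mediated decay transcripts held 8.05% and 5.60% and the processed transcript U2af1-205 the rest, at 4.42 and 9.30 TPM, which the alignment-based table lists at 0 in both libraries. In that table the mean coding share was 14.5%, against 7.64%, and that of nonsense-mediated decay 1.54%, against 6.83%. In estimated counts the coding share was 12.3%. U2af1 has the fewest counts of the 10 genes, 730 and 607, so its shares carry the widest counting intervals. U2af1 also shares 26.1% of its 30-base words with other genes, led by AC102268.2 at 0.993 and 0.536 TPM, and its reads may be split with them. The coding transcripts U2af1-201 and U2af1-202 differ in their exon 3, which has 67 bases in each and is identical at 44 of them. They are shown with the differing bases in capitals, because they replace each other in these coding transcripts within an equal length.
U2af1-201 exon 3, chr17:31651646-31651712, minus strand: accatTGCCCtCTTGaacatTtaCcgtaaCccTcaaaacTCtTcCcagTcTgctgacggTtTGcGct
U2af1-202 exon 3, chr17:31652502-31652568, minus strand: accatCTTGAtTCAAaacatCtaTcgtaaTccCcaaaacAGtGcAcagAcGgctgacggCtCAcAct

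U2af1-201 had 1.73 and 1.45 TPM and U2af1-202 had 0.112 and 0 TPM. Of this coding pair the form with the downstream exon was the higher one in each library. Other transcripts hold these exons too: U2af1-205 has both of them, and the retained-intron transcript U2af1-203, at 6.93 and 4.50 TPM, covers the upstream one. All transcripts with the upstream exon summed to 11.5 and 13.9 TPM and all with the downstream exon to 6.18 and 10.8 TPM, so the coding pair alone does not give the use of the exons. U2af1-204, also with a retained intron, had 5.84 and 8.79 TPM. The nonsense-mediated decay transcript U2af1-209, at 1.99 and 1.61 TPM, skips exon 3 and holds a cassette of 40 bases with the stop inside it, and the alignment-based table lists it at 0 in both libraries.

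Luc7l2, which binds the U1 snRNP at 5' splice sites, had 15.2% and 19.5% of its TPM in coding transcripts, 19.2% and 14.5% in nonsense-mediated decay transcripts and 59.3% and 56.9% in retained-intron transcripts. Of its retained-intron transcripts, Luc7l2-206 at 32.1 and 50.2 TPM and Luc7l2-210 at 37.0 and 45.1 TPM could not be ordered. Other leading transcripts were the coding Luc7l2-207, at 11.8 and 25.3 TPM, and the nonsense-mediated decay transcript Luc7l2-204, at 15.2 and 19.5 TPM. None of its nonsense-mediated decay transcripts has its stop inside a cassette exon. Luc7l2 shares 24.7% of its 30-base words with other genes, led by Gm26699, which overlaps it on the opposite strand. Gm26699 was at 3.19 TPM in replicate 1 and 4.54e-05 TPM in replicate 2.

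The name retained intron covers unlike structures in these genes. Of the 53 retained-intron transcripts, 18 keep a whole intron of the reference transcript, and the other 35 begin or end inside an intron. Those 18 held 13.1% and 13.8% of the members' retained-intron TPM, beside 24.2% and 22.3% over all genes pooled. The median over genes had the opposite order, with 21.3% and 24.6% for the members and 0 in both libraries for all genes. The pooled value includes Rbm39 and Luc7l2, the most abundant members, at 0. The share was 69.5% and 64.9% in Clk2, 49.7% and 52.8% in Rbm5, 39.9% and 34.5% in Clk3, 37.1% and 31.1% in Clk1, and 22.6% and 35.4% in Clk4. It was 20.0% and 18.1% in Tra2b and 18.6% and 13.2% in Tra2a. No retained-intron transcript of Rbm39, U2af1 or Luc7l2 keeps a whole reference intron, so the share was 0 there, as it was for 55.5% of 5984 genes with retained-intron RNA.

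The direct and the alignment-based tables gave the same count of members at the 50% cutoff, 9 of 10, but against different backgrounds. Of background genes, 36.0% of 6715 were at the cutoff in the direct table and 25.2% of 6031 in the alignment-based one. The member left out was again Tra2b, which had 47.3% and 55.7% in the alignment-based table. For 6 of the 10 genes the mean summed share differed between tables by more than the SD between libraries. U2af1 moved from 73.2% and 63.0% to 79.4% and 91.5%. Clk4 moved from 80.3% and 75.3% to 64.5% and 55.2%. Rbm39 moved from 73.9% and 66.7% to 67.3% and 56.9%. Tra2a moved from 96.7% and 98.4% to 82.1% and 94.7%, with a coding share of 17.9% and 5.35%. Of 89 member transcripts that reached 1 TPM in each library of the direct table, 4 were listed at 0 in both libraries of the alignment-based one. Tra2a had the highest and Tra2b the lowest mean summed share of the 10 genes in both tables.

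**Figure D5:**
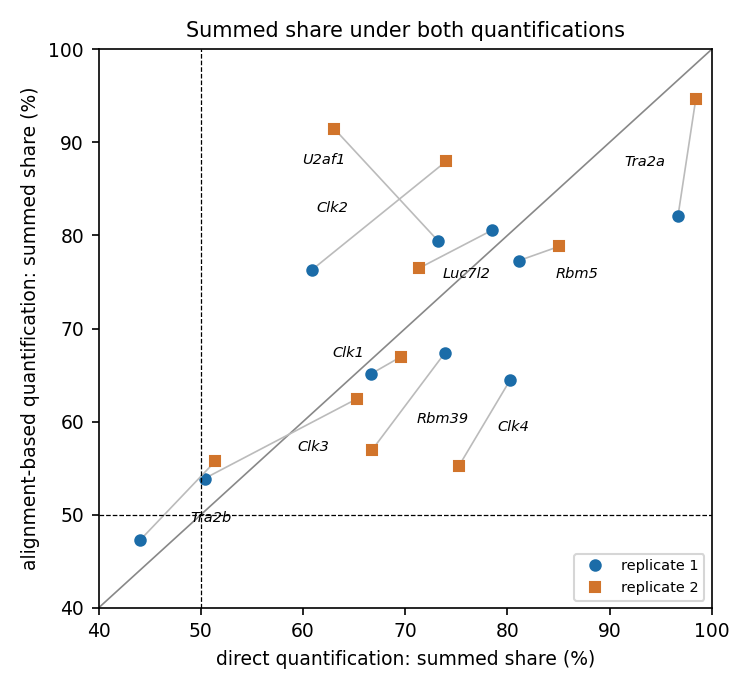
Summed nonsense-mediated decay and retained-intron share (percent of TPM) in the direct table on the horizontal axis and in the alignment-based table on the vertical axis, with circles for replicate 1, squares for replicate 2 and a line joining both libraries of a gene; dashed lines mark 50% and the diagonal marks equality. U2af1 and Clk2 lie above the diagonal and Clk4, Rbm39 and Tra2a below it, and 9 of 10 genes stay past 50% in both libraries of both tables. Of background genes, 36.0% of 6715 pass in the direct table and 25.2% of 6031 in the alignment-based one.

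The counts behind these shares were large for most members. Luc7l2 had 20888 and 20641 estimated counts, Rbm39 20002 and 18575, and Clk2 1064 and 1102. As a share of counts, the summed classes of U2af1 had a Wilson 95% interval of 69.8% to 76.2% in replicate 1 and of 64.2% to 71.6% in replicate 2. Tra2a had intervals of 97.8% to 98.3% and of 98.8% to 99.2%. These intervals cover counting error only, since reads without molecular identifiers are not independent molecules and the assignment of a read to a transcript has an error of its own. For 7 of the 10 genes the summed share of TPM differed between libraries by more than 5 percentage points.

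The same cutoff was applied to other genes of these pathways. Over 5 lists of splicing kinases, SR proteins, RBM proteins, splice site factors and decay factors, 62 genes could be split, and 37 of them, or 59.7%, were at the 50% cutoff in both libraries. By list these were 5 of 6 kinases related to the CLKs, 8 of 14 SR proteins and relatives, 11 of 20 RBM proteins, 9 of 15 splice site factors and 4 of 7 decay and exon junction factors. The background is 36.0% of all genes, and the lists together also have more such transcripts per gene, with a median of 4 against 2. Among the genes at 10 TPM or more, the highest were Srsf11, an SR-related protein, at 86.6% and 85.1%, the decay factor Smg9 at 79.0% and 92.1%, and the U1 factor Prpf39 at 85.9% and 84.5%. Among the lowest were Rbm47, an RNA-binding protein, at 16.4% and 19.7%, and the kinase Dyrk1a at 15.2% and 21.3%.

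Likeness to Clk1 was measured as the mean absolute difference in the shares of the 4 classes over both libraries, among 3281 protein-coding genes at 10 TPM or more. Among the nearest were Traf7, a ubiquitin ligase, at 3.18 percentage points, and Napg, a membrane fusion factor, at 3.41. Among the members, Luc7l2 was nearest at 5.40 and U2af1 next at 5.88. The paralog Clk4 was at 9.44, Clk2 at 11.5 and Clk3 at 14.3, while Tra2a was the farthest at 20.0. These distances rest on the direct table only and were not computed for the alignment-based one. The share of other transcripts in U2af1 was 17.6% and 30.9% in the direct table and 0 in the alignment-based one. In the latter, retained-intron transcripts held 78.2% and 89.7% of U2af1, against 54.0% and 47.0% of Clk1.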

How the data were processed

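Nucleoplasmic total RNA of 2 libraries was analysed. Per the file headers and accompanying notes, the authors deposited for each library a table made directly from 10 read files and tables made from a transcriptome alignment, both on mm10 with GENCODE M21. What aligned and quantified the reads is not given in the sources used here. Estimated counts, as the authors deposited them, need not be whole, and were rounded for scaling and intervals. TPM, as deposited, has an equal sum in both libraries, small RNAs included. Bounds of a TPM interval, a signal deposited by the authors, have no stated level and are printed for 1 transcript. Gene TPM was summed over transcripts and split by the biotype in each transcript's name. Library ratios used log2(TPM + 0.1) minus the median over genes at 1 TPM or more in both. Exon structure was compared with the APPRIS principal transcript, and sequences were read from the GENCODE M21 transcripts. The members and lists were chosen with earlier results of these data known. Genes named beside the members were the 3 highest and 3 lowest pathway genes at 10 TPM or more, the 3 nearest to Clk1, and each member's leading transcript per class; 2 genes that this rule names are not reported here. Python 3.11.15, pandas 2.3.3, Biopython 1.88, R 4.3.3, edgeR 4.0.16 and DESeq2 1.42.0 (scaling alternatives only) were used. Scripts were tested on simulated data.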

Additional observations from a re-analysis of the deposited data

How the results depend on the processing

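The number of members at the 50% cutoff was 9 with the alignment-based table, with estimated counts, at 10 TPM or more and above 0 TPM, and 10 at a cutoff of 25%. It fell to 3 at a cutoff of 75%, where 12.4% of background genes passed, against 67.3% at 25%. Among genes with at least 5 such transcripts the background was 66.6%. Without replicate 1 the count was 10 and without replicate 2 it was 9, with backgrounds of 41.5% and 40.8%. Over effective lengths of 200 bases or more, 8 were at 50% on the mean, all but Tra2b at 47.7% and Clk3 at 42.8%. The share of background genes was not computed at that setting. The members' median coding share of 18.1% became 22.7% with the alignment-based table and 21.3% with counts. Their median retained-intron share of 54.6% became 60.6% with counts, 56.9% over 3 classes only and 51.0% with effective lengths of 200 bases or more. Their median summed share of 72.0% became 81.1% over 3 classes only. Without a filter on level, 1 member was past 1.5-fold between the libraries, Clk1 at 0.61 (log2), and 0 under every other setting tried. No paired analysis was possible because there is 1 group. Limits: there are 2 libraries of unlike starting amounts, no other condition, no stated strand, and class shares rest on how each quantifier divides reads among overlapping transcripts.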
